A study of Homo sapiens with 6 samples.

Results

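GM12878 cells sorted for low H3K27ac were compared with live, unsorted cells of the same line. The comparison rests on 4 of the study's 6 chromatin accessibility libraries, chosen by their titles: 2 of the low sort and 2 of the live control. GM12878 is a B lymphoblastoid line, made by immortalising B cells with Epstein-Barr virus. Per the labels' protocols, the low cells had a viability stain, then 5 min in 1.6% paraformaldehyde, and were permeabilised, stained for H3K27ac and sorted from the dim end of the staining. Their open DNA was read by InTAC-seq, which is ATAC-seq adapted to fixed cells: the transposase Tn5 cuts open DNA, and the crosslinks are reversed afterwards. The live control was neither sorted nor put through crosslink reversal: its DNA was purified straight after transposition. Both groups used 50000 cells per library and 30 min of transposition at 37 °C. The sort for a low mark, fixation and handling therefore cannot be told apart here. The sorted cells were split into replicates after sorting, so p-values measure only the spread between these libraries, which may be technical. The labels name the mark H3K27ac, except that the staining protocol writes the antibody target as H3K37ac.

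H3K27ac is the acetyl mark that histone acetyltransferases such as EP300 and CREBBP place at active promoters and enhancers, and that deacetylases remove. Promoters with CpG islands tend to be open in most cell types, whereas enhancers differ more between cell types. Tn5 reads the openness of DNA and not the mark itself, so a list of open sites from mark-low cells shows where the DNA could be cut in those cells.

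The deposited files list peak summits, single bases with a score from the authors' peak caller, and hold no read counts, so the depth is unknown. Low replicates 1 and 2 had 40489 and 50198 summits on chromosomes 1 to 22, and live replicates 1 and 2 had 67823 and 70083. Summits of the 4 libraries under 500 bp apart were chained into 88663 regions. The low libraries held 39792 and 49216 of these, and the live libraries 66504 and 68734. Because list lengths differed, each library was cut to its best 39792 regions by score, the length of the shortest list, unless another length is given. A region was placed at a gene end when its summit lay at most 1 kb from the start or the end of a protein-coding gene, both counted because the gene table has no strand. Of 11 listed B lymphoblastoid markers, 8 had a region at a gene end in all 4 cut lists, among them MS4A1, EBF1, CD79A and IRF4. Among the rest, PAX5 was open in 1 library and BLK in 2. Of the other lineages, 4 of 8 T and NK cell markers, 1 of 6 myeloid markers (CEBPA) and 0 of 6 erythroid and megakaryocyte markers were open in all 4. GATA1 lies on chromosome X and was outside the regions.

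Calls differed most between the directions at gene ends, and the promoters printed here were picked for holding the motifs that differed. The rank test described further on ordered the regions called in all 4 libraries and compared their ranks between the groups. Each sequence is the 250 bases before the annotated start, 5′ to 3′ on the gene's strand, from RefSeq (GRCh38.p14). The first 3 are the promoters with the largest rank gain in low among those with an NRF1 motif. The other 3 are those with the largest rank gain in live among those with both an ETS and a CCAAT motif. All 6 had a summit within 250 bp of the start, and they were chosen after the values were seen. Capitals mark GCGCANGCG (NRF1) in the first 3, and CCGGAAG (ETS) or CCAAT (bound by NFY) in the others, on either strand. ZC3H18 also holds 1 ETS motif, left in lower case, so the motifs do not part the 6 cleanly.
TCFL5: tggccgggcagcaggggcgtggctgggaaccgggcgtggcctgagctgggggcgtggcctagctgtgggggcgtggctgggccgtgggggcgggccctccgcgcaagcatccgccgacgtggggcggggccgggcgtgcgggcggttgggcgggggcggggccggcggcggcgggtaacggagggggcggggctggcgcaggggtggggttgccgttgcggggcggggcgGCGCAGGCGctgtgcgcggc
CHST12: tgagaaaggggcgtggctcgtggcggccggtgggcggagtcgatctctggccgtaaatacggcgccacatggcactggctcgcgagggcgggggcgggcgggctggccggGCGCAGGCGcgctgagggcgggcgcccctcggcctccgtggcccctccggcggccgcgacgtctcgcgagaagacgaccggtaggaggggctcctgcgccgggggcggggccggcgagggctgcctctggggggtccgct
ZC3H18: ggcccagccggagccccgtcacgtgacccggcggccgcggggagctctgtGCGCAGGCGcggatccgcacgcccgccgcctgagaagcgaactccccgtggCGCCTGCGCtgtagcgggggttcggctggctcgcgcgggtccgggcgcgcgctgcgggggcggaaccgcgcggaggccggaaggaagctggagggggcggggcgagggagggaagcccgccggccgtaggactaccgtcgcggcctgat
ZNF419: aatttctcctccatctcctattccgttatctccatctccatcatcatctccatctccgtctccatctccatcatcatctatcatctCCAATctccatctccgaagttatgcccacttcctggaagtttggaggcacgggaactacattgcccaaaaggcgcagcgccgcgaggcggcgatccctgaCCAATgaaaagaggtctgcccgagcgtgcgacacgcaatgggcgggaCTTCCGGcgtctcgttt
MRPS18A: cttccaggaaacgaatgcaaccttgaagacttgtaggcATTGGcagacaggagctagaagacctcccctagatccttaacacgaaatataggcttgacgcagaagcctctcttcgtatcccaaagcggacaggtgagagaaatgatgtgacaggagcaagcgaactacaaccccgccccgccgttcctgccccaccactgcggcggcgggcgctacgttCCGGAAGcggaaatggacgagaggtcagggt
SHKBP1: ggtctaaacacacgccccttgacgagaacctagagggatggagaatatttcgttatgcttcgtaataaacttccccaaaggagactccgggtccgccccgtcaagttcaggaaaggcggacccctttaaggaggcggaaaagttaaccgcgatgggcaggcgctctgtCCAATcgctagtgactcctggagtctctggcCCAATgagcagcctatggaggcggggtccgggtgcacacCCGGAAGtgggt
In TCFL5 (chr20:62861823-62862072, minus strand), which encodes a basic helix-loop-helix transcription factor, 82.8% of the bases were G or C. CHST12 (chr7:2403361-2403610, plus strand), a carbohydrate sulfotransferase gene, had 78% and ZC3H18 (chr16:88570153-88570402, plus strand), a zinc finger protein of nuclear RNA decay, 78.4%. The other 3 promoters were less GC-rich, a contrast that the choice by motif can itself shape. ZNF419 (chr19:57487500-57487749, plus strand), a zinc finger gene, had 54%, MRPS18A (chr6:43687792-43688041, minus strand), a mitochondrial ribosomal protein gene, 56%, and SHKBP1 (chr19:40576623-40576872, plus strand) 56.8%. The MRPS18A region stood at percentile ranks of 48.2 and 16.1 in low and 79.2 and 66.1 in live, where 100 is the best score, and the SHKBP1 region at 68.2 and 42.5 against 85.1 and 84.2. In both, each live library ranked above each low one, though the low replicates differed by more than the live ones.

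The strongest sites of the low libraries lay at gene ends more often than those of the live libraries. Among the best 2500 regions, a length chosen after the values were seen, 80.8% and 79.7% of the low libraries' regions were at a gene end, against 68.4% and 68.1% in live. The groups did not overlap, and the difference of the means was 12 percentage points (80.2 ± 0.74 against 68.3 ± 0.23, SD, n = 2 each). The 95% Wilson intervals (counting error alone) spanned 78.1% to 82.3% over both low libraries and 66.3% to 70.2% over both live libraries. The two-sided exact permutation p was 0.333, the smallest that 2 against 2 libraries can give. The places that gave way were distal. Regions inside a gene over 5 kb from its ends made up 7.98 ± 0.48% of the low lists and 14.6 ± 0.37% of the live lists. Regions 5 to 100 kb from any gene made up 5.56 ± 0.11% and 8.96 ± 0.17%, and regions over 100 kb away 1.62 ± 0.085% and 4.16 ± 0.11%.

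The gap closed as the lists grew longer. It was 10.3 points at 5000 regions (72.2 ± 0.78% against 61.9 ± 0.69%), 6.2 at 10000 (58.3 ± 0.88% against 52.1 ± 0.39%) and 1.47 at 19896 (40 ± 0.12% against 38.5 ± 0.043%). At 39792 regions the gene-end share was 24.9% and 25.1% in low and 25% and 24.7% in live. There the groups overlapped, with a difference of 0.0892 points (exact permutation p = 0.667, and 0.834 after Benjamini-Hochberg adjustment over 5 places). None of the 5 places could pass at any length with 2 libraries a group. The direction at 39792 was not stable: it turned to -0.199 points with regions chained up to 1000 bp, and to -0.0163 and -0.0729 points without low replicate 2 or live replicate 2. For comparison, the best 2500 regions of the H3K27ac high libraries, fixed and sorted like the low ones, were 62.2% and 69.8% at gene ends, 1 below and 1 above the live values. That difference between the sorts was not tested.

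**Figure D1:**
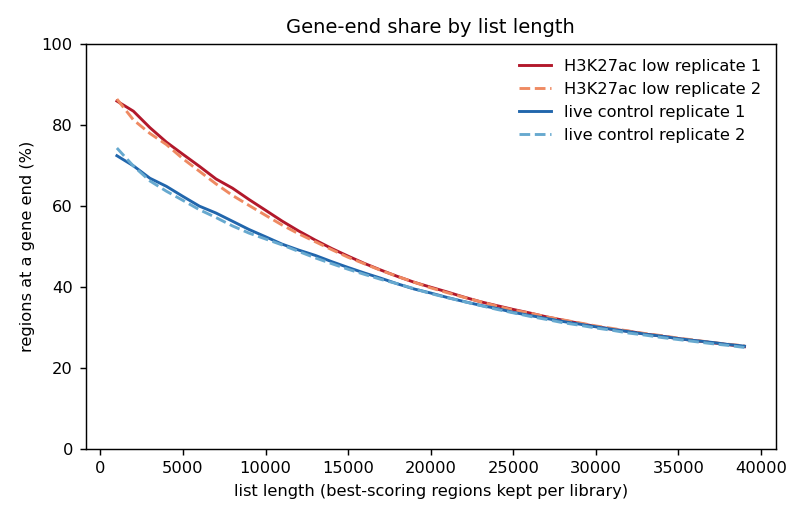
Share of regions within 1 kb of a gene end (y axis, percent) against the number of best-scoring regions kept per library (x axis), 1 line per library. The low lines run above the live lines at short lengths, 80.8% and 79.7% against 68.4% and 68.1% at 2500 regions, and meet them near 25% at the full equal length.

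Both groups opened mostly the same regions. Of 57134 regions among the best 39792 of any library, 26140 (45.8%) were in all 4 lists. The low libraries shared 78.8% of their regions with each other and the live libraries 83.2%, while low and live libraries shared 76% to 79.2%. Low-only regions, in both low lists and neither live list, numbered 2055 (3.6% of the 57134), and live-only regions numbered 2537 (4.44%). Of the low-only regions, 210 (10.2%) were at a gene end, and of the live-only regions 209 (8.24%). The difference of 1.98 points turned to -1.54 without low replicate 2.

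Most low-only regions were weak in live rather than absent. A live library's full list held 1695 of the 2055, and 208 had no live summit within 1 kb. Among the live-only regions, 764 were in low replicate 2's longer list and 1672 had no low summit within 1 kb. The full live lists are longer than the low ones, so these 2 counts were not on an equal footing. The counts had no test, since each needs all 4 libraries.

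Named by rule, 9 of the 10 low-only regions with no live summit within 1 kb lay within 5 kb of a gene end. The leading one lay 28 bp from a gene end of BRD10, a bromodomain gene, at ranks 2783 and 4435 in the low lists. Next came NFE2L2, the regulator of the antioxidant response, 41 bp from a gene end at ranks 7960 and 8632. Whether that end was the start of the gene was not read for these one-group regions. SERF2 followed at 309 bp with ranks 7033 and 9211. These gene-end regions, FSCN2's too, had a live summit at 1014 to 1423 bp, just past the limit. The region near DUX4 lay 17754 bp from that gene, in the repeat-rich end of chromosome 4, where reads may be shared between copies, and its nearest live summit was 92345 bp away. The other 5 of the 10 were near TUBB, FAM117B, ZBTB46, CBLB and NPAS4, each 1021 to 4931 bp from a gene end.

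The 10 leading live-only regions were all over 5 kb from a gene end. They lay nearest to EAPP, DYNC1H1, SEC61A1, LOC124900642, AFP, BICD1, EREG, RRAS2, TANK and EMP1, at 5877 to 81228 bp. The contrast with the 10 low-only regions is one of the best-ranked few and was not seen over all one-group regions. Of all low-only regions 10.2% were at a gene end and 12.3% at 1 to 5 kb, and of all live-only regions 8.24% and 14.1%. The region nearest DYNC1H1, the dynein heavy chain gene, ranked 7898 and 12523 in live, with no low summit for 12150 bp. The region inside AFP, the fetal serum protein gene of liver, ranked 13940 and 12350, with no low summit for 89635 bp. TANK, an adaptor of TRAF signalling, had a region 73001 bp away at ranks 16720 and 12448.

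Some genes had several one-group regions within 100 kb. ITGB8, an integrin subunit, led with 5 low-only regions among its 15 regions in any cut list, and 0 live-only. BCL2, the inhibitor of apoptosis, had 4 low-only and 1 live-only among 29. Another 20 genes tied at 3 low-only regions, and the first 6 of them by alphabet, ACOXL, ANXA2R, ARHGAP15, CAMK4, CD44 and CDK6, had 0 live-only. In the other direction 10 genes tied at 3 live-only regions, the first 8 by alphabet being CLYBL, FAT2, KIAA1217, KIF13B, LMBRD1, PTPRE, RPRD1B and SFMBT2. SFMBT2 also had 1 low-only region, and the other 7 had 0. In all, 1598 low-only regions fell to 1406 genes and 2031 live-only regions to 1864 genes.

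At the level of genes the lists were nearly alike. At 39792 regions, 10550 and 10627 of 19126 protein-coding genes had a region at an end in low, and 10735 and 10670 in live. All 4 libraries shared 9936 of the 11354 genes open in any. Open in low only were 79 genes (0.696%), and in live only 120 (1.06%). Without any 1 library, these counts rose to 166 to 209 and 240 to 320, since fewer lists then had to concur.

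Ranks were compared over the 31790 regions called in all 4 libraries. Within this set each library's regions were ranked by score, and a percentile rank of 100 is the best. Ranks are relative, so a region can rise only as others fall, and in bulk cells a site open in fewer cells cannot be told apart from one less open in each. The limma test on the normal scores of the ranks, with eBayes moderation by a trend on mean rank, called 1326 regions higher in low (4.17%) and 1082 higher in live (3.4%) at an adjusted p under 0.05. The calls rest on that trend: without it limma called 0 in both directions, with 3117 and 2743 at an unadjusted p under 0.05, against 3548 and 3654 with it. The higher-in-low count fell to 501 without low replicate 1 and 845 without low replicate 2. The higher-in-live count fell to 597, 634 and 538 without low replicate 1, live replicate 1 and live replicate 2.

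Calls in the 2 directions lay in different places. Of the regions at gene ends, 934 of 9187 (10.2%) ranked higher in low and 314 (3.42%) higher in live. Inside genes over 5 kb from an end it was 137 of 10366 (1.32%) and 361 (3.48%). At 5 to 100 kb from any gene it was 89 of 6369 (1.4%) and 232 (3.64%), and beyond 100 kb 31 of 2803 (1.11%) and 87 (3.1%). Thus 70.4% of the calls higher in low were at gene ends and 29% of the calls higher in live, beside 28.9% of all regions tested. The split held in each setting of the test that made calls. The share of calls higher in low at gene ends was lowest, 34%, when regions absent from some of the equal-length lists were let in at the bottom rank, against 19.9% for live.

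Gene-end regions rank high, and the test made more calls among high-ranking regions, so the shares were also taken within classes of mean percentile rank. From 80 to 100, 11.2% of 3795 gene-end regions were higher in low and 4.87% higher in live, while of 1966 regions elsewhere 4.53% and 11.9% were. From 60 to 80, the gene-end shares were 13.5% and 3.02% of 2519, and those elsewhere 2.4% and 6.1% of 3785. From 40 to 60 they were 9.55% and 2.76% of 1414, and 2% and 3.46% of 5149. From 20 to 40 they were 3.39% and 1.2% of 1002, and 1.31% and 1.62% of 6966, and the median difference at gene ends was -0.679 percentile points. From 0 to 20 the pattern was lost: gene ends had 0.438% in both directions and a median of -2.7 points, and regions elsewhere 0.38% and 0.253%. The median gene-end region stood at percentile 78.3 in low replicate 1, 77.8 in low replicate 2, 74 in live replicate 1 and 73.4 in live replicate 2.

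**Figure D2:**
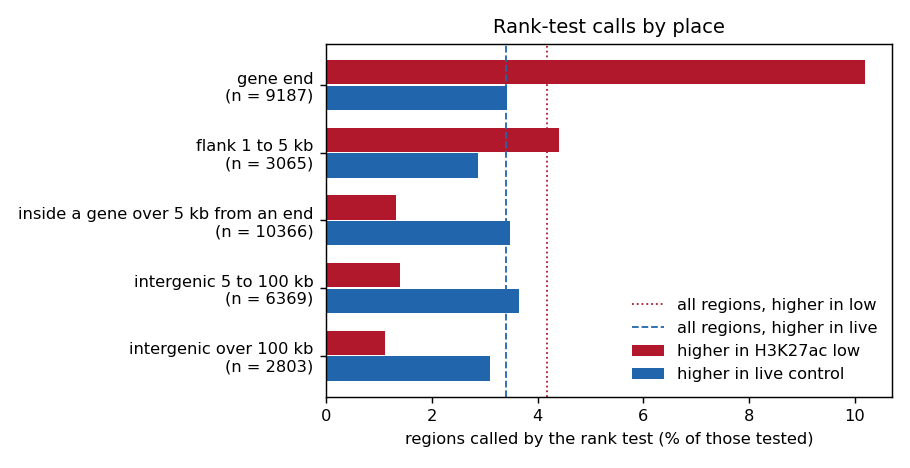
Percent of tested regions called higher in low (red) or higher in live (blue) by the limma rank test (x axis), by place (y axis, with the number tested); dotted and dashed lines give 4.17% and 3.4%, the shares over all regions. Gene ends stand at 10.2% higher in low, and the places over 5 kb from an end have 1.11% to 1.4% higher in low and 3.1% to 3.64% higher in live.

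By chromosome, calls higher in low were most frequent on chromosome 19, the most gene-dense, at 11.8% of 1326 regions, followed by chromosomes 22 (8.24%), 17 (7.97%) and 16 (7.33%). They were least frequent on chromosome 5 (2.13%). At gene ends alone, chromosome 22 led with 18.5% of 211, and chromosome 19 had 16.4% of 714 and chromosome 5 had 5.1% of 431. Calls higher in live ranged from 2.18% on chromosome 20 to 4.93% on chromosome 15.

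TCFL5 had the gene-end region with the largest rank gain in low (chr20:62861514-62862102, 149 bp before the start). It stood at percentiles 91.6 and 89.4 in low and 14 and 6.71 in live. The groups were far apart, at a difference of 80.1 percentile points (adjusted p = 3.56e-06 in limma's rank test). CHST12 stood at 90.7 and 91.5 against 7.43 and 25 (adjusted p = 8.19e-06). ZC3H18 stood at 91.5 and 90.1 against 30.2 and 13.9 (adjusted p = 1.2e-05). In each of these both low libraries stood far above both live ones.

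Signalling and transcription genes were among the other named gene ends higher in low. MKNK2, the kinase that phosphorylates the cap-binding factor eIF4E, stood at 80 and 63.2 in low and 3.68 and 2.47 in live. PPP2R5C, a regulatory subunit of the phosphatase PP2A, stood at 94.1 and 88.4 against 28.9 and 19.4. CSNK1G2, a casein kinase gene, stood at 76.1 and 84.3 against 2.94 and 8.66, and POLR2J, a subunit of RNA polymerase II whose region also touches RASA4B, at 82 and 73.8 against 14.6 and 12.1. The remaining 5 of the 12 were KIFC2, FNDC11, TRIR, CYTH1 and GNG8, with differences of 65 to 70.6 points. GNG8's region was at the far end of the gene, not its start, and KIFC2's region also touches TMEM276-ZFTRAF1. No strand was given for CSNK1G2, KIFC2, FNDC11, TRIR and POLR2J, so which end their regions lay at was not read.

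The 12 named gene ends higher in live differed by less, 45.6 to 56.3 points. With each library left out, only NOD1 and PLPP6 stayed called in all 4 fits, whereas all 12 gene ends named as higher in low did. LRGUK led, at 13.9 and 21 in low and 79.5 and 67.9 in live (adjusted p = 0.00254 in limma's rank test). NOD1, the intracellular sensor of bacterial peptidoglycan, stood at 19.3 and 33.2 against 83.1 and 81.4 (adjusted p = 0.000594). PLPP6, a lipid phosphatase gene, stood at 19.3 and 24.9 against 76.7 and 76.9, with its summit on the annotated start. GSTM1, a glutathione transferase with close paralogs beside it, stood at 27.2 and 21 against 74 and 81, and reads may be shared between the copies. SERPINH1, a collagen chaperone gene, stood at 24.8 and 30.9 against 73.1 and 75.2. The rest were ASCL5, IGHMBP2, GSTO1, SERPINB12, DNPH1, IRAG2 and ZNF419, and the regions of ASCL5 and IRAG2 were at the far end of the gene. IGHMBP2's region also touches MRPL21, and with no strand given for IGHMBP2, which of its ends this was was not read.

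**Figure D3:**
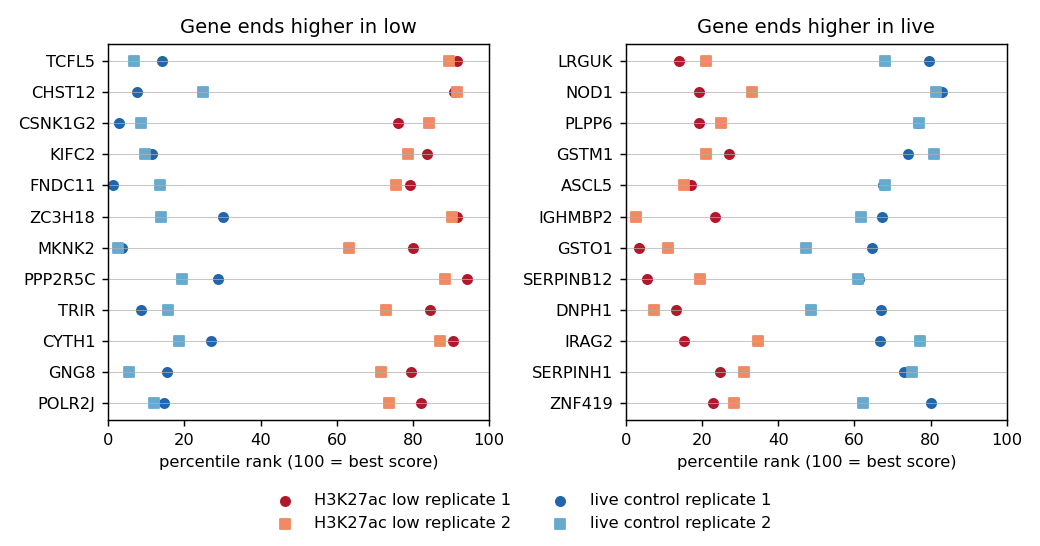
Percentile rank (x axis, 100 is the best score) of the 12 gene-end regions with the largest rank gain in low (left) and in live (right), 1 point per library. In both panels the low and live points of every gene are apart, by up to 80.1 percentile points between group means on the left and 56.3 on the right. The regions were chosen for this difference.

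Away from gene ends, the region with the largest rank gain in low lay in SYNGR3, a synaptic vesicle protein gene, at percentiles 88.1 and 87.9 in low and 9.47 and 9.51 in live (adjusted p = 1.05e-05 in limma's rank test). The region in DNM1, the gene of the membrane-cutting GTPase dynamin, stood at 86.8 and 84.3 against 7.77 and 20.5. The region 11739 bp before the start of SPEN, a transcriptional repressor, stood at 88.1 and 84.3 against 13.1 and 29.8, a difference of 64.7 points that came to 34.6 with regions chained up to 1000 bp (adjusted p = 0.00594 in limma's rank test). Of the 8 such regions, 4 (SYNGR3, DNM1, MIDN and UBTF) were 1 to 5 kb from a gene end, and 4 were further away (SPEN, S1PR1, RALGDS and SPTLC1).

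All 8 named regions away from gene ends that ranked higher in live lay over 5 kb from an end. The region inside SLC28A1, a nucleoside transporter gene, stood at 11.5 and 12.7 in low and 77.4 and 76.5 in live (adjusted p = 0.000561 in limma's rank test). The region 28133 bp before ZFAND3 stood at 25.4 and 25.8 against 81.6 and 89.8. The region 48787 bp from BMP2, a ligand of the TGF-beta family, stood at 4.45 and 4.59 against 61.2 and 59.2. The other 5 lay by UBE2Q2, TAF1B, AGAP3, ACIN1 and TRIO, with differences of 55.8 to 60.4 points. With each library left out, SLC28A1, ZFAND3 and ACIN1 stayed called in all 4 fits, and so did all 8 such regions higher in low.

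No gene gathered many called regions within 100 kb, and those named were ordered by the fewest tested regions and then by alphabet. Higher in low, 1227 genes had 1 called region, 29 had 2 and 0 had more. BRD2, CIRBP, GZF1 and MKNK2 had both of their 2 tested regions called, and GRIN1, MIDN, MNT and RPS12 had 2 of 3. Higher in live, 877 genes had 1 and 32 had 2. BTN3A3, GTF3C6, PGM2, SENP8 and TMEM62 had both of 2 called, and APC, CARS1 and GOLGB1 had 2 of 3.

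Promoters that ranked higher in low were richer in G and C. Of 7445 tested gene starts with a RefSeq promoter sequence of 300 bases (250 before the start, 50 after), 795 were higher in low and 261 higher in live. The median GC content was 70.7% in the first and 62% in the second, beside 65.7% in those not called and 63% over all 15101 promoters. The median number of CpG dinucleotides was 34, 21, 27 and 22 in the same order. From promoters of at most 60% GC to those over 72%, the share higher in low went from 4.15% (of 1952) to 8.08%, 12.5% and 18.2% (of 1867). The share higher in live went from 5.64% to 4.04%, 3.02% and 1.23%.

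The NRF1 motif GCGCANGCG, named for a factor of genes of mitochondria and growth, set the 2 directions furthest apart in proportion. It was in 275 of 795 promoters higher in low (34.6%) and 8 of 261 higher in live (3.07%), beside 15.7% of those not called and 11.1% of all promoters. In the 4 GC classes from low to high, 22.2%, 37.7%, 40.4% and 32.4% of the promoters higher in low held it, against 1.82%, 5.48%, 1.82% and 4.35% of those higher in live. The E-box CACGTG was in 16.2% and 6.51% (8.77% of all), the cAMP response element TGACGTCA in 6.67% and 2.3% (2.65%), and the GC box GGGCGG in 85.7% and 67.4% (58.9%). In the same order, promoters not called stood at 10.5%, 3.47% and 73.5%. Within the 4 GC classes the GC box was in 49.4%, 72.6%, 90.4% and 96.8% of promoters higher in low and in 44.3%, 72.2%, 86.3% and 96.2% of those not called, a much smaller gap than over all.

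ETS and CCAAT motifs leaned the other way. CCGGAAG, the core of ETS factor sites, was in 33.7% of promoters higher in live and 16% of those higher in low. It was in 22.7% of those not called and 14.4% of all promoters. CCAAT was in 54.4% and 33%, beside 39.1% of those not called and 36% of all promoters. In the class of at most 60% GC the ETS shares were 39.1% and 18.5%, and the CCAAT shares 71.8% and 45.7%. The CCAAT gap was smaller in the classes above, at 46.6% and 38.4% (over 60 to 66% GC), 40% and 35.5% (over 66 to 72%) and 30.4% and 25.9% (over 72%). Promoters not called stood at 41.6%, 37.4% and 27.8% there. The ETS shares were 32.9% and 21.9% at over 60 to 66% GC, and 36.4% and 15.8% at over 66 to 72%. In the class over 72% GC, where only 23 promoters were higher in live, the ETS share was 4.35% in live and 12.9% in low. Without low replicate 1 the ETS shares came to 22.6% and 17%. The other 7 motifs searched, on both strands, were those of the TATA box (TATAAA), of the factor YY1 (AAGATGGC), of the AP-1 family (TGANTCA), of the NF-kB family (GGGANTTCC), of the RUNX factors (TGTGGT), of interferon regulatory factors (GAAANNGAA) and of the POU2F factors (ATGCAAAT). They were in 1.51% to 7.55% of promoters higher in low and 3.07% to 6.9% of those higher in live. Promoters not called had 1.31% to 9.09%, and all promoters 1.69% to 10.8%. Of these, NF-kB (1.51% against 3.45%), AP-1 (2.26% against 4.21%) and POU2F motifs (1.51% against 3.07%) were also less frequent in promoters higher in low, on counts of 8 to 18 promoters. So was the motif of interferon regulatory factors, in 36 promoters higher in low (4.53%) and 18 higher in live (6.9%). In the class of at most 60% GC this was not so for AP-1 (7.41% in low against 6.36% in live) or NF-kB (3.7% against 3.64%). POU2F motifs stood at 2.47% against 6.36% there, and interferon regulatory factor motifs at 9.88% against 10.9%. In each class above it, at most 3 promoters higher in live held the NF-kB, the AP-1 or the POU2F motif. At most 4 held the interferon regulatory factor motif, which at over 60 to 66% GC was in 6.85% in low and 5.48% in live. A match is only a run of letters and says nothing of binding, and CCAAT, being short, is found in many promoters.

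**Figure D4:**
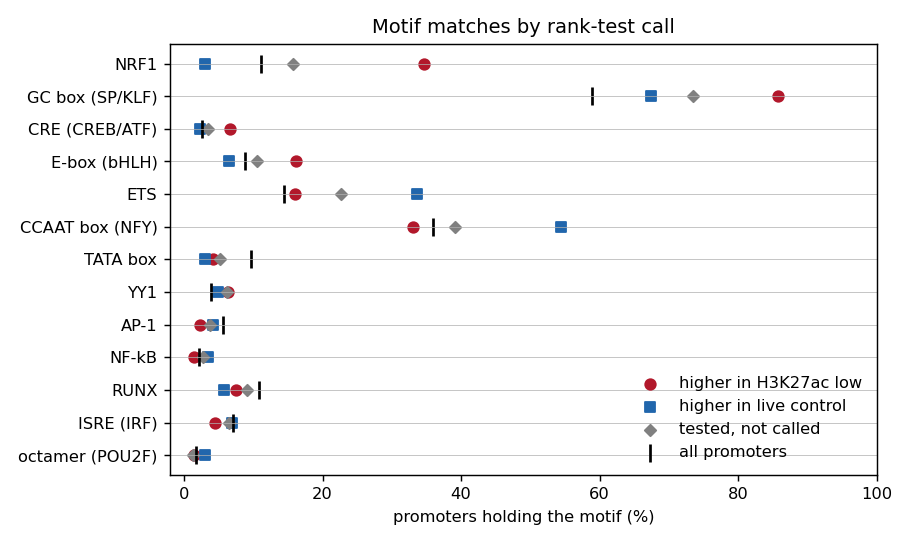
Percent of promoters (x axis) holding each motif (y axis) among 795 promoters higher in low (red circles), 261 higher in live (blue squares), 6389 tested and not called (grey diamonds) and all 15101 (black ticks). NRF1 stands at 34.6% against 3.07%, whereas ETS and CCAAT stand at 16% against 33.7% and 33% against 54.4%.

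The same letters were counted in each library's own best 2500 regions, so that libraries and not promoters are the replicates; the regions overlap those of the rank test, so this is a second view of the same scores. NRF1 motifs were in 20.9% and 20.6% of the low libraries' promoters and 15.1% and 15.1% of the live libraries' (difference 5.65 points). ETS motifs were in 21.5% and 22.6% against 27% and 26.7%, and CCAAT in 57.2% and 57.3% against 62.3% and 62.7%. The groups did not overlap in any of these, and each exact permutation p was 0.333, the smallest possible. At 19896 regions the gaps were small: 18.3% and 18.3% against 17.6% and 17.5% for NRF1 (difference 0.75 points), and 40.4% and 40.6% against 41.1% and 41.2% for CCAAT. The ETS shares then overlapped, at 23.5% and 23.7% against 23.7% and 23.8% (exact permutation p = 0.667). The H3K27ac high libraries had NRF1 shares of 18.5% and 18.5% at 2500 regions, and of 18.5% and 18.4% at 19896, above the low ones. Their CCAAT shares at 2500 regions, 55.4% and 56.2%, were below both groups.

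Among the gene lists, the regulators of NF-kB and AP-1, the pathways that Epstein-Barr virus keeps active in lymphoblastoid cells, had the largest share of calls higher in low. A gene was counted when any region at its ends was called, and over all 10214 genes with a tested region 1143 (11.2%) were higher in low and 359 (3.51%) higher in live. A gene's median entry was its called region, or else the region with the largest difference. In this list 10 of 21 tested genes (47.6%) were higher in low and 0 higher in live (12 and 0 at an unadjusted p under 0.05 in limma's rank test, 57.1% against 22.8% over all genes), and the median difference was 7.18 percentile points, beside 1.5 over all genes. Over all genes the unadjusted share higher in live was 11.1%. These calls were not stable to leaving out a library. Each of the 10 called regions lost its call in some such fit, and most did without low replicate 1. Such a fit holds 1 library in a group, so a lost call does not show which library the call rested on. The differences of the 10 kept their direction in each such fit. That is no test of direction, since in each of the 10 both low libraries stood above both live ones. All calls fell in number without low replicate 1, as given for the rank test. NFKBIE, an inhibitor of NF-kB, stood at 75.4 and 69.8 in low and 8.01 and 33.8 in live (adjusted p = 0.00638 in limma's rank test). TRAF3, which restrains the noncanonical pathway, stood at 74.4 and 70.2 against 31.8 and 17.9. JUNB, an AP-1 subunit, stood at 60.8 and 41.5 against 3.32 and 2.26, but at a region 344 bp past the far end of the gene. CD83, an activation marker, stood at 79.6 and 86.2 against 53.5 and 52.1. The other 6 called were RELA (also at its far end), RELB, TNFAIP3, BIRC3, JUN and JUND. The activators and the inhibitors of the pathway were both among the 10.

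Genes of the acetylation machinery followed, with 7 of 21 (33.3%) higher in low, 0 higher in live (9 and 2 at an unadjusted p under 0.05) and a median of 10.3 points. With a library left out, 2 to 5 of the 7 stayed called, and only KAT6A did in all 4 such fits. BRD2, a reader of acetyl marks, stood at 61.5 and 47.3 against 3.25 and 2.46 (adjusted p = 0.00731 in limma's rank test). At the equal length BRD2 was open at its ends in low only, though both live libraries called this region in their full lists. CREBBP, an acetyltransferase for H3K27, stood at 81.6 and 69.8 against 41.6 and 37.5, and EP300, its partner enzyme, at 90.4 and 92.4 against 76 and 58.2. KAT6A, an acetyltransferase, and the deacetylases HDAC2 and SIRT1 were also called.

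In both chromatin lists besides, the calls were in low. SWI/SNF genes, whose complex slides nucleosomes, had 4 of 17 (23.5%) higher in low, 0 higher in live (8 and 1 at an unadjusted p under 0.05) and a median of 12.9 points. SMARCA4, the ATPase, stood at 91.5 and 94.3 in low and 26.1 and 45.4 in live (adjusted p = 1.53e-05), and SMARCB1 at 75.3 and 78.5 against 52.1 and 23. The others were ARID2 and DPF2, and only SMARCA4 stayed called with each library left out. Polycomb and DNA methylation genes had 4 of 18 (22.2%), 0 higher in live (11 and 1 unadjusted) and a median of 12.8. CBX7, a reader of H3K27 methylation, stood at 83.4 and 87.5 against 26.9 and 53.2, and EED, RBBP4 and CBX8 were the others. RBBP4's region also touches ZBTB8OS. CBX7 and CBX8 stayed called with each library left out.

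Calls in the growth and stress lists varied. DNA replication genes had 4 of 24 (16.7%) higher in low and 1 (4.17%) higher in live, with a median of 1.95. CDT1, a licensing factor, stood at 55.9 and 46.8 against 7.97 and 8.71 and was open in low only at the equal length. POLD1, a DNA polymerase subunit, stood at 97.9 and 93.4 against 64.6 and 72, at a region that also touches NR1H2. MCM6 of the replicative helicase and PCNA, the sliding clamp, were also higher in low, and RFC5 was higher in live. PCNA's region also touches CDS2. Only POLD1 stayed called with each library left out. Heat shock and stress genes had 4 of 26 (15.4%) and 0 (13 and 0 at an unadjusted p under 0.05, 50% against 22.8% over all genes), with a median of 6.03, led by GADD45B, a stress-induced gene, at 82.7 and 74.9 against 21.7 and 11.2. HSP90AB1, HSP90B1 and HSPA8 were the others, and only GADD45B stayed called with each library left out. Ribosomal protein genes had 2 of 26 (7.69%), RPL3 and RPS2, and 0 in live (6 and 1 unadjusted, near the share of all genes).

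Mitosis genes had 2 of 21 in each direction (9.52%), beside 11.2% higher in low and 3.51% higher in live over all genes. At an unadjusted p under 0.05 in limma's rank test, 3 were higher in low (14.3%) and 5 higher in live (23.8%). Over all genes these shares were 22.8% and 11.1%. The list's median difference was -1.14 percentile points, beside 1.5 over all genes. KIF11, the spindle kinesin, and MAD2L1 were higher in low, while CCNB2, a mitotic cyclin, stood at 66.6 and 79.2 in low and 95.4 and 94.3 in live, and CDC20 was also higher in live. None of these 4 stayed called with each library left out: KIF11 and MAD2L1 were lost without low replicate 1, low replicate 2 or live replicate 2, and CCNB2 and CDC20 without low replicate 1. In the respiratory chain SDHA was higher in low and UQCRQ in live, 1 of 26 each (3.85%), and SDHA stayed called with each library left out. SDHA's region also touches CCDC127, and UQCRQ's region GDF9.

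B cell genes were called at about the share of all genes. The identity list had 2 of 19 (10.5%) higher in low, 0 higher in live (4 and 1 at an unadjusted p under 0.05) and a median of 4.47. These were TCF3, a B lineage transcription factor, at 94 and 90.3 against 71.7 and 67, and CD37, a B cell tetraspanin, at 86.6 and 74 against 52.4 and 32.6. CD37's region lay 134 bp from an end of the gene and also touches SLC6A16 and TEAD2. No strand was given for CD37, so whether that end was its start was not read. Receptor signalling genes had 2 of 18 higher in low (11.1%), MALT1 and GRB2, and 1 higher in live (5.56%), DAPP1, at 96 and 95.7 against 99 and 99.2. This list had 3 and 2 at an unadjusted p under 0.05 in limma's rank test. Its median was -2.58, beside 1.5 over all genes. SH3BP2 was open in low only at the equal length. None of these 5 calls stayed with each library left out, and none of them without low replicate 1.

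Antigen presentation was the list with calls in live only: 2 of 19 (10.5%) higher in live, 0 higher in low (3 and 0 at an unadjusted p under 0.05) and a median of -3.76. HLA-DMA, which loads peptides onto class II molecules, stood at 73.2 and 86.9 in low and 94.5 and 98.6 in live (adjusted p = 0.0032 in limma's rank test). HLA-DPB1, a class II chain, stood at 56.2 and 59 against 84.5 and 78.6 (adjusted p = 0.0476). HLA-DPB1 lost its call with any library left out (adjusted p up to 0.243), and HLA-DMA without low replicate 1 or live replicate 2. The HLA genes are polymorphic with close copies, which can move reads between them. The costimulation and adhesion list had ICAM3 higher in low, at the gene's far end and beside RAVER1, and ITGA4 higher in live, 1 of 20 each (5%). ICAM3 lost its call without either low library, and ITGA4 without low replicate 1 or either live library.

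Interferon response genes had 0 of 19 called by limma in either direction (2 higher in low and 1 in live at an unadjusted p under 0.05; median -3.26), and XAF1 was open in live only. The lists of other lineages had few tested genes and 0 calls by limma (1 in all, a T or NK cell gene higher in live, at an unadjusted p under 0.05): 8 of T and NK cells, where CD3D was open in live only, 3 myeloid, 2 erythroid and megakaryocyte and 4 homeobox and SOX genes. The lists were chosen with earlier results of these data known, so their shares are a description.

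**Figure D5:**
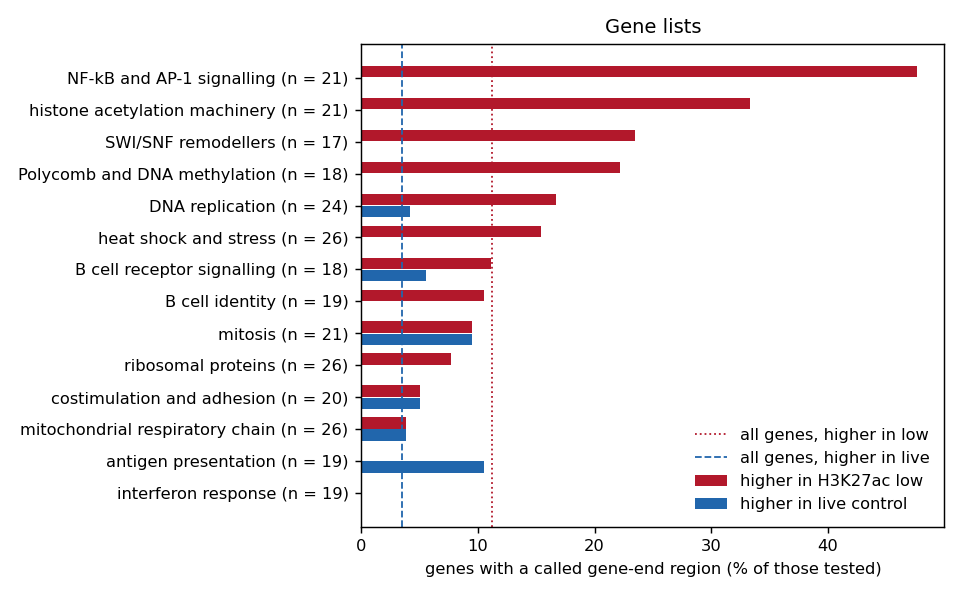
Percent of tested genes of each list with a gene-end region called higher in low (red) or in live (blue) by the limma rank test (x axis), for lists with 10 or more tested genes (number in brackets); the lines give 11.2% and 3.51%, the shares over all genes. NF-kB and AP-1 (47.6%) and histone acetylation (33.3%) reach furthest in low, and antigen presentation has calls in live only.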

How the data were processed

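Accessibility was measured in GM12878 cells, and groups and replicate numbers came from the sample titles. Per the submitters' processing notes, bcl2fastq, FastQC, Bowtie2, Picard and MACS2 were used, without versions, with the builds hg38 and hg19. The deposited coordinates are on hg38. Summits were called per library. Their settings, a shift for the Tn5 cut and duplicate removal: not given in the sources used here. The deposited score was read as the −log10 of a p-value or q-value of the authors' peak caller. It was used only to rank regions within a list, since it grows with depth. Depth is unknown, and intervals cover counting error only.

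Genes came from RefSeq (GRCh38.p14): 19126 protein-coding genes on the 22 autosomes, of which 15101 had a promoter sequence with strand. Of the gene-end regions named by rank and the called list members, 55 lay nearer the start and 6 nearer the other end. For 14 no strand was given, so the end was not read. Regions, equal list lengths and places were made as in the text. Shares were compared with two-sided exact permutation tests over libraries. Ranks were turned into normal scores (offset 0.5) and tested with limma 3.58.1 in R 4.3.3 (lmFit, eBayes with trend, Benjamini-Hochberg over all 31790 regions). The test was also run on simulated scores with the same spread for every region, which cannot test the trend. Other steps used Python 3.11.15 and scipy 1.17.1. The replicate numbers do not pair the libraries: deviations of same-numbered libraries correlated at -0.0011.

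Named regions were, among those called, the 12 at gene ends and 8 elsewhere with the largest mean rank difference in each direction, 1 per gene. They were joined by the 10 one-group regions a direction over 1 kb from any summit of the other group with the best worse rank, 8 genes a direction with the most called or one-group regions (ties among called regions by fewest tested, then all by alphabet), up to 4 called members of each list by size, and the markers. Further members that were called, EP300 among them, were named after their values were seen. The comparison, its members and the gene lists were chosen with earlier results of these data known. Of the listed genes, those on chromosome X or not matched to the table were not analysed here, and some listed genes are not reported here.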

Additional observations from a re-analysis of the deposited data

Results flagged for a closer look

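Summits on contigs outside the numbered chromosomes, X and Y, which no comparison used, took a larger share of the low lists than of the live lists. It was 0.217% and 0.183% for low replicates 1 and 2, against 0.113% and 0.116% for live replicates 1 and 2, so the groups did not overlap. The H3K27ac high libraries had 0.276% and 0.156%. The low lists are shorter than the live ones, and the part of list length in this was not tested.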

How the results depend on the processing

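With 2 libraries a group no share could pass a test, and depth is unknown. The gene-end difference at the equal length (0.0892 points) turned to -0.199 with chaining at 1000 bp and -0.0616 with a 2500 bp window, and ran from -0.0729 to 0.251 with each library left out. In the other settings it was 0.0126 to 12. Of the other places, the 1 to 5 kb share turned to 0.367 points at 19896 regions and 0.62 at 2500 regions. The share inside genes turned to -0.829 at 19896 regions, -1.81 in full lists, -0.0297 with chaining at 250 bp, -0.131 by starts only, -6.64 at 2500, and -0.18 to 0.295 with each library left out. The share over 100 kb away turned to -1.49 in full lists and -2.54 at 2500.

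Counts of one-group regions followed the list length. Low-only regions (2055) numbered 1365 at 19896 regions, 534 in full lists, 502 at 2500 (a length chosen after seeing the data), 360 when absent from the other group's full lists, 208 with no summit within 1 kb and 3587 to 7014 with a library left out. Live-only regions (2537) numbered 1254, 10630, 413, 1672 (no summit within 1 kb) and 4277 to 5817 in those settings. Their difference in gene-end share (1.98 points) was 13.2 at 19896 regions, 11.3 in full lists, 36.7 at 2500, 14.7 when absent from full lists, 0.256 with chaining at 1000 bp, and -1.54 to 3.75 with a library left out. Genes open in low only (79) numbered 335 at 19896 regions, 15 in full lists, 515 at 2500 and 166 to 209 with a library left out. Genes open in live only (120) numbered 503 in full lists, 184 with a 2500 bp window, 222 at 2500 and 240 to 320 with a library left out. Leaving out a library raises such counts by construction.

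The limma rank test called 0 regions in both directions without the trend. With absent regions tied at the lowest rank it called 2966 higher in low, and with a library left out 501 to 1071 in low and 538 to 1285 in live. With the replicate number as a block it called 1608 and 1533, which included all 1326 and 1082. Over 91 named regions and list members, 819 of 1063 values kept their call, 244 fell short of it and 0 turned, and 33 regions kept it with each library left out. All 91 passed with chaining at 1000 bp and with the replicate block. The 91 were picked as called, and the block and the fit without the trend leave each difference unchanged. That 0 values turned is therefore no test of direction.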

Other observations

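Summits in the promoters that ranked higher in low lay further before the annotated start than the others. With negative positions before the start, the median was -108 and -106 bp for low replicates 1 and 2 and -101 and -102 bp for live replicates 1 and 2. In the same order it was -50, -55, -48 and -49 bp for promoters higher in live, and -63, -63, -55 and -54 bp for those not called. Over all regions of the rank test, the median distance between the summits of the 2 low libraries was 32 bp, between the 2 live libraries 30 bp, and between low and live libraries 33 to 37 bp. In regions higher in low it was 21 bp within low, 36 bp within live and 41 to 45 bp between the groups. In regions higher in live it was 30.5 bp within low, 18 bp within live and 22.5 to 28 bp between the groups. In both directions, the group in which the regions ranked higher had the shorter distance between its own replicates.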
